A study of Mus musculus with 9 samples.

Results

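White fat that turned beige by 2 routes was compared on microarrays: the inguinal fat of control mice after cold exposure, and that of room temperature mice that had lost Zfp423 in adipocytes. The comparison used the 3 arrays of cold-exposed controls and the 3 arrays of room temperature knockouts, 6 of the 9 arrays in the study, over 16915 genes. The remaining 3 arrays, from controls kept at room temperature, gave the untreated level and shared in the estimate of the spread. All groups carried Adiponectin-rtTA and TRE-Cre, a doxycycline-switched recombinase, and all ate doxycycline chow for 28 days starting at 8 weeks of age. Controls were Zfp423+/+ and knockouts were Zfp423loxP/loxP, and the cold group spent the last 14 of the 28 days at 6 °C. RNA came from whole inguinal white adipose tissue, a fat pad under the skin of the hip. The recombinase depended on the adiponectin promoter, which is active in adipocytes, so other cells of the pad may have kept the gene. Nothing in the labels states that each array is a mouse of its own. The p-values below therefore measure only the spread between arrays, and 3 arrays a group limit the precision.

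Beige adipocytes are fat cells within white depots that carry many mitochondria and burn fuel as heat through the uncoupling protein UCP1. In the cold, sympathetic nerves release noradrenaline, which induces the thermogenic genes and, with time, the enzymes of glucose uptake and fatty acid synthesis that refill the fat droplets. Zfp423 is a zinc finger transcription factor of white adipocytes that restrains the thermogenic programme, and the question of the comparison was how the cold response differs from the state reached by its removal.

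Differences are given on the log2 scale of the deposited values, as the cold mean minus the knockout mean with its standard error, so that 1 unit is a 2-fold change. A gene was called different at a limma adjusted p under 0.05. By that rule 405 of 16915 genes (2.39%) differed. Of these, 210 (1.24%) were higher in the cold and 195 (1.15%) were higher in the knockouts, with medians of 0.83 and -0.67 among the called genes. When the arrays were quantile normalized again the same threshold gave 322 higher and 148 lower, and when each array was centred on its median it gave 311 and 209. Acly and Acss2, enzymes that make cytosolic acetyl-CoA, were far higher in the cold. The ER peroxidase gene Gpx8 and the purine synthesis gene Impdh1 were far higher in the knockouts. Cold and knockout arrays did not overlap for any of the 405 called genes, but they also did not overlap for 5460 genes (32.3%) in all, and the smallest two-sided p of an exact permutation test of 3 arrays against 3 is 0.1. An unadjusted limma p under 0.05, quoted for many lists below, was reached by 4525 of the 16915 genes.

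**Figure D1:**
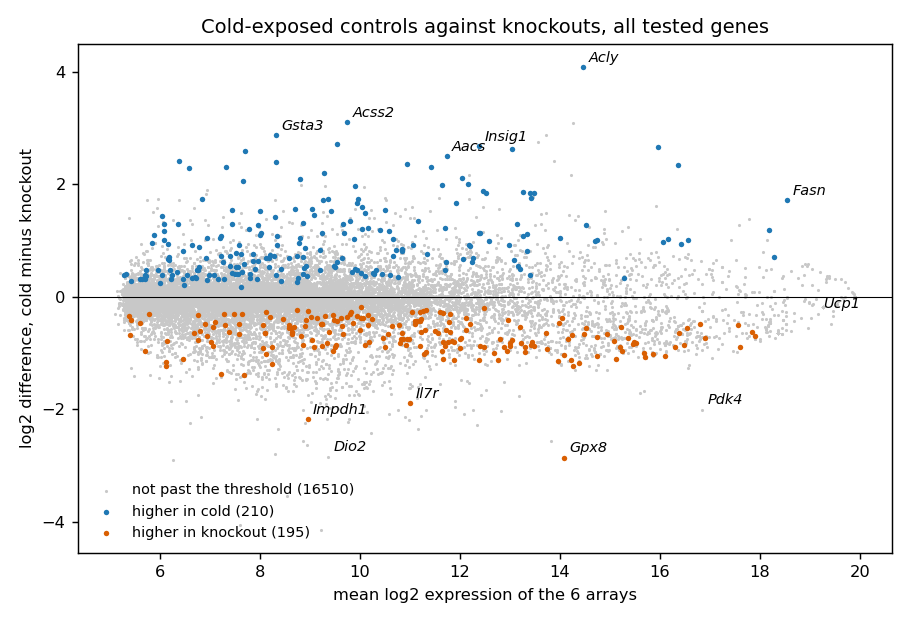
Log2 difference of every tested gene (vertical axis, cold-exposed controls minus room temperature knockouts) against its mean log2 expression over the 6 arrays (horizontal axis). Blue points are the 210 genes past the threshold and higher in the cold, orange points the 195 higher in the knockouts, and grey points the other 16510; Acly lies highest at 4.08 and Ucp1 lies near 0 at the bright end.

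The number of called genes depended strongly on single arrays. It was 643, 599 and 73 without room temperature control replicates 1, 2 and 3, and 197, 2700 and 14 without knockout replicates 1, 2 and 3. Without cold replicates 1, 2 and 3 it was 98, 30 and 155. These totals, out of 16915 genes, are the background for the list counts given below for the same fits. An unadjusted p under 0.05 was reached by 3093 to 5835 genes in these fits. The arrays whose removal cost most calls in each group were the ones lying between the other arrays of their group. Knockout replicate 3 was the middle of its group for 66.8% of genes, control replicate 3 for 60.4% and cold replicate 2 for 53.0%. Across genes, knockout replicate 3 lay a median of 0.06 log2 units from the mean of the other knockout arrays, which were a median of 0.23 apart. With these 3 in-between arrays left out together, limma called 0 genes, and 987 had an unadjusted p under 0.05. The values of a group were also identical on all 3 arrays for 1020 genes in the cold group (6.03%), 639 in the knockouts (3.78%) and 975 in the room temperature controls (5.76%). Of the genes with identical values, 1 of the cold group, 2 of the knockouts and 12 of the room temperature controls were called. How these identical and in-between values arose was not tested.

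Few genes stayed past the threshold whichever array was left out. Such fits keep values that are identical across a group, so they cannot show which calls rest on such values. Past the threshold in each of the 9 fits that left out 1 array were 14 genes, a set picked after its values were seen, and they were also the only genes past it without knockout replicate 3. Of these, 11 were higher in the cold: Aacs, Acsl5, Bckdha, Dhrs7, Fmo1, Idi1, Prune2, Ralgapa2, Slc25a10, Zadh2 and the pseudogene Glns-ps1. The 3 that were higher in the knockouts were Eif3k, a subunit of a translation initiation factor, Ttc39b and the pseudogene Xlr3d-ps. Zadh2, a prostaglandin reductase gene, read 9.86, 9.86 and 9.73 in the cold, 8.67, 8.75 and 8.62 in the knockouts and 8.44, 8.44 and 8.42 in room temperature controls. Its difference was 1.14 ± 0.05 (limma adjusted p = 0.000608). Fmo1, a flavin-containing monooxygenase, read 14.58, 14.52 and 14.47 in the cold, 13.50, 13.51 and 13.44 in the knockouts and 13.95, 13.79 and 13.88 in room temperature controls. Its difference was 1.04 ± 0.05 (limma adjusted p = 0.00104), and the control arrays lay between the groups.

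Zfp423 itself was lower in the knockouts without full loss of signal. It read 8.83, 8.72 and 8.40 in the cold, 7.56, 8.15 and 8.04 in the knockouts and 8.74, 8.22 and 8.40 in room temperature controls. Cold and knockout arrays did not overlap, and the difference of 0.73 ± 0.20 did not pass the threshold (limma adjusted p = 0.0869). The probes' place relative to the deleted part of the gene was not examined, so the signal is no measure of the deletion. The tissue read as fat: Adipoq, the adiponectin gene, lay between 14.70 and 14.78 on all 6 arrays, and its difference was 0.02 ± 0.10. None of 17 mammary epithelial genes passed the filter on low rows, the brightest having a mean of 5.25 against the filter's 5.31.

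The promoters of genes on which the comparison turned are shown here because the lipid and clock genes moved in groups. The sequences are RefSeq's for the mouse build GRCm38.p6 and each runs for 300 bases across the annotated start. Capitals mark a CCAAT box (CCAAT or, on the other strand, ATTGG) in the first and second, a CCAAT box and an E-box (CACGTG) in the third, and E-boxes in the fourth. They lie at chr11:100527951-100528250 on the minus strand (Acly), chr2:155517793-155518092 on the plus strand (Acss2), chr5:28071162-28071461 on the plus strand (Insig1) and chr3:95882179-95882478 on the minus strand (Ciart).
Acly: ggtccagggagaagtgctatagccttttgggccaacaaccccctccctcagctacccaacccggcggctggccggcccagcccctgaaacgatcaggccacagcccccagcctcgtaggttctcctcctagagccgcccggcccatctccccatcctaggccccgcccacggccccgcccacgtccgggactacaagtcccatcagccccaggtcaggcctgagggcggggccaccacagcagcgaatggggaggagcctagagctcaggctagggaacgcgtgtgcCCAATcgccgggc
Acss2: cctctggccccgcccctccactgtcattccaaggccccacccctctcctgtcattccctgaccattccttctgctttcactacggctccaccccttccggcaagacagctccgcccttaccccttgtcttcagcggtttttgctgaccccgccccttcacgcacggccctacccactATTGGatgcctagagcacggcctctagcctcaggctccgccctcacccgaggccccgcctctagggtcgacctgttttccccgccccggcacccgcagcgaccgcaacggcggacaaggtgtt
Insig1: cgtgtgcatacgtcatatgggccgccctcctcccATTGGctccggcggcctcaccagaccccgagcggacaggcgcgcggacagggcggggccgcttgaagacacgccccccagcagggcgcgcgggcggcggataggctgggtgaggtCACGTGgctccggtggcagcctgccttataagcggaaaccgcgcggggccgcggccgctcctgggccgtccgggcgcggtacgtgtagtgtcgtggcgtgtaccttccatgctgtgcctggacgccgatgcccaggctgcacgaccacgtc
Ciart: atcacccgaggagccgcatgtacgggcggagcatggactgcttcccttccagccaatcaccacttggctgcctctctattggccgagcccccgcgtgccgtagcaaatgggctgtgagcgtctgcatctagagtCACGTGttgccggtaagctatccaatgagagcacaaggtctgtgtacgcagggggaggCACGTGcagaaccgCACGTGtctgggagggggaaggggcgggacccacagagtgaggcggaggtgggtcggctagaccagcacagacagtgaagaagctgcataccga
Of 18 called genes of lipid and sterol synthesis, 14 had an entry in the promoter table, with 17 windows. CCAAT on either strand was in 12 of the 17 windows (70.6%), against 37.4% of all 32851 windows of that length. CACGTG was in 2 of them (11.8%) against 7.15% of all, and TCACNCCAC, a sterol regulatory element, was in 0 against 1.24% of all. For the called clock genes, 3 of 6 windows (50%) held CACGTG, those of Ciart and Tef. CCAAT was in 4 of these 6 windows (66.7%), those of Ciart, Cry2 and Tef, so it was not particular to the lipid genes. The CCAAT matches of Ciart are left in lower case above. These are letter matches in short windows and were not tested as binding sites.

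Many genes of fatty acid and triglyceride synthesis were higher in the cold. Of 25 measured members, 10 were called higher in the cold and 0 lower, against 1.24% of all genes called higher, and 18 had cold arrays wholly above the knockout arrays, against 12.3% of all genes. The median difference over the 25 was 1.20, against -0.03 over all genes, and 23 members were above 0. Acly and Acss2, which were given with the comparison, showed the largest differences of the list. This list and those below were chosen with earlier results of these data known. Their counts beside the background therefore describe the lists and do not test them.

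Acly, ATP citrate lyase, splits citrate into acetyl-CoA outside the mitochondria. It read 15.74, 16.55 and 17.20 in the cold, 11.77, 13.08 and 12.41 in the knockouts and 13.06, 14.01 and 13.68 in room temperature controls. The cold arrays were all above the control arrays, and of the knockout arrays only the highest reached the lowest control array. The difference was 4.08 ± 0.47, or 16.9-fold (limma adjusted p = 0.0127). Acss2, which makes acetyl-CoA from acetate, read 10.68, 11.35 and 11.84 in the cold, 7.81, 8.56 and 8.22 in the knockouts and 9.47, 9.55 and 9.53 in controls. Its 3 groups did not overlap, and the knockouts were the lowest. The difference was 3.10 ± 0.30, or 8.56-fold (limma adjusted p = 0.00917). Without knockout replicate 3 the limma adjusted p was 0.0812 for Acly and 0.0671 for Acss2, and without cold replicate 2 it was 0.0791 and 0.0613.

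Aacs, which activates acetoacetate for lipid synthesis, read 12.96, 13.09 and 12.91 in the cold, 10.21, 10.88 and 10.36 in the knockouts and 11.56 on each control array. The controls lay between the groups, and the difference was 2.50 ± 0.16 (limma adjusted p = 0.00223). Slc25a10, the mitochondrial dicarboxylate carrier, which was not on the list, read 11.83, 12.10 and 12.39 in the cold, 9.57, 9.91 and 9.80 in the knockouts and 10.86, 11.23 and 10.99 in controls. It showed the same order, with a difference of 2.35 ± 0.16 (limma adjusted p = 0.00301). The citrate carrier Slc25a1 differed by 1.76 ± 0.24 (limma adjusted p = 0.0197).

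Acaca, acetyl-CoA carboxylase, the committed step of fatty acid synthesis, read 16.51, 17.39 and 18.00 in the cold, 14.05, 15.19 and 14.67 in the knockouts and 16.01, 16.08 and 16.07 in controls. All knockout arrays were below all control arrays. The difference was 2.66 ± 0.41 (limma adjusted p = 0.0271). Fasn, fatty acid synthase, read 19.07, 19.44 and 19.69 in the cold, 17.22, 18.12 and 17.74 in the knockouts and 18.50, 18.69 and 18.64 in controls. The values approached the highest value of the table, 19.93, and the difference of 1.71 ± 0.24 (limma adjusted p = 0.0226) may be compressed. Me1 and Pgd, which supply NADPH for the chain, differed by 2.34 ± 0.42 and 1.99 ± 0.36 (limma adjusted p = 0.0419 and 0.0405). Elovl6, which elongates the product of fatty acid synthase, read 14.09, 15.29 and 16.08 in the cold and 10.91, 13.41 and 12.53 in the knockouts, with 13.44, 12.79 and 13.24 in controls. Its difference of 2.87 ± 0.71 missed the threshold (limma adjusted p = 0.0734), and the arrays of each group were far apart. Dgat2, the last enzyme of triglyceride synthesis, differed by 0.71 ± 0.09 (limma adjusted p = 0.0197). Mlxipl, which encodes the carbohydrate-sensing factor ChREBP, stood 1.40 ± 0.40 higher without passing (limma adjusted p = 0.0902).

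The list counts moved with the arrays used. The called members of the lipogenic list numbered 4 without control replicate 3 or cold replicate 3 and 1 without knockout replicate 3 or cold replicate 2. They numbered 18 without knockout replicate 2 and 7 to 9 without any 1 of the other arrays. The list median stayed between 0.96 and 1.39 in these fits. The general adipocyte list had 0 of 19 members called by limma, 7 having an unadjusted p under 0.05, and a median of 0.16. It had 5 called and a median of 0.31 when knockout replicate 2 was left out, and without knockout replicate 1 the median was 0.01. On the list of adipocyte genes the knockout arrays stood at -0.43, 0.01 and -0.15 and the cold arrays at 0.04, 0.01 and -0.01, as medians relative to the control mean. In bulk tissue, fewer cells of a type and less RNA per cell cannot be told apart.

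**Figure D2:**
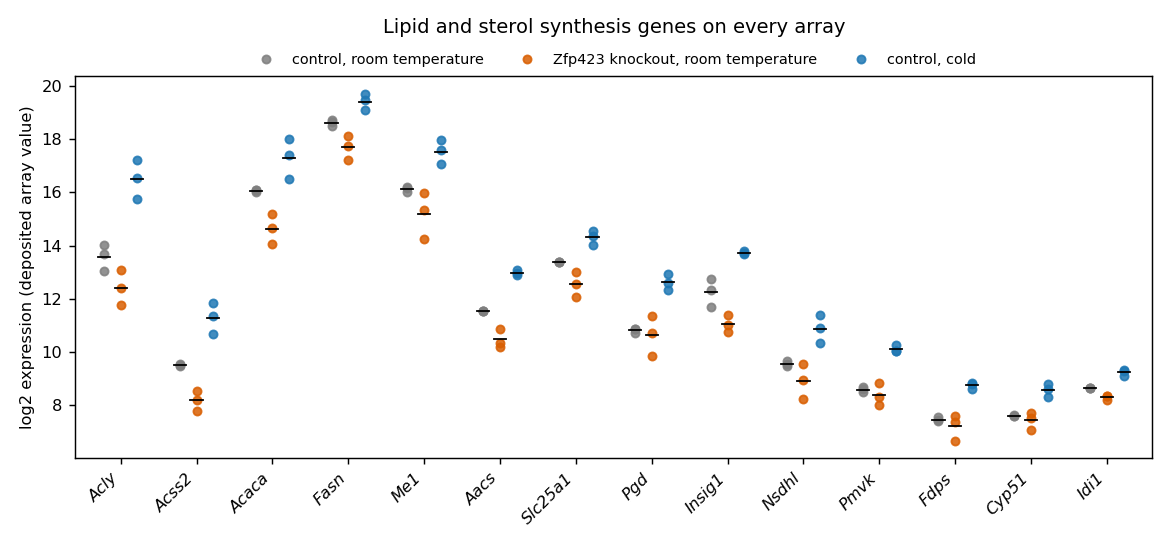
Deposited log2 value (vertical axis) on each array for 14 genes of lipid and sterol synthesis, all past the threshold, with a bar at each group's mean. The cold-exposed arrays (blue) lie above the knockout arrays (orange) for each gene, and for Acly and Acss2 the room temperature controls (grey) have means between them.

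Many sterol synthesis genes were higher in the cold as well. Of 20 measured members, 9 were called higher and 0 lower (background 1.24% and 1.15%), the median difference was 0.75 and 14 had cold arrays wholly above the knockout arrays (background 12.3%). Insig1, an ER protein that holds back the sterol-sensing factors SREBP and is itself one of their targets, read 13.79, 13.67 and 13.71 in the cold, 10.75, 11.39 and 11.01 in the knockouts and 11.70, 12.76 and 12.34 in controls. The 3 groups did not overlap. Its difference was 2.67 ± 0.27, or 6.39-fold (limma adjusted p = 0.00968), and it belongs to both the lipogenic and the sterol list.

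Idi1, the isomerase that makes the second building block of sterols, read 9.12, 9.33 and 9.31 in the cold, 8.22, 8.36 and 8.35 in the knockouts and 8.67, 8.66 and 8.67 in controls. The controls again lay between, and the difference was 0.95 ± 0.07 (limma adjusted p = 0.00301). Pmvk and Fdps, of the mevalonate arm, differed by 1.72 ± 0.20 and 1.53 ± 0.22 (limma adjusted p = 0.0127 and 0.0249). Of the later steps, Nsdhl, Cyp51 and Fdft1 differed by 1.97 ± 0.37, 1.14 ± 0.18 and 1.07 ± 0.19 (limma adjusted p = 0.0434, 0.0307 and 0.0406). Sqle and Msmo1 differed by 0.73 ± 0.14 and 0.78 ± 0.11 (limma adjusted p = 0.0467 and 0.0263). Hmgcs1, at the entry of the mevalonate pathway, had overlapping arrays and a difference of -0.21 ± 0.58 (limma adjusted p = 0.85). Called members numbered 3 without control replicate 3 or cold replicate 1, 4 without cold replicate 3, 1 without knockout replicate 3 or cold replicate 2, and 7 to 13 without any 1 of the other arrays.

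A sugar transporter and glycogen genes were among the largest single differences in the cold direction. Slc2a5, the fructose transporter GLUT5, read 7.02, 7.60 and 8.14 in the cold, 4.90, 5.30 and 5.32 in the knockouts and 5.76, 5.76 and 5.71 in controls. The groups did not overlap, and the difference was 2.42 ± 0.26 (limma adjusted p = 0.0115). Pygl, the liver isoform of glycogen phosphorylase, read 13.88, 14.36 and 14.84 in the cold, 11.40, 12.12 and 11.70 in the knockouts and 12.50 on each control array. The difference was 2.62 ± 0.26 (limma adjusted p = 0.00946). Ppp1r3b, which brings a phosphatase to glycogen, read 10.44, 10.90 and 11.32 in the cold, 7.53, 8.65 and 8.36 in the knockouts and 6.98, 7.86 and 7.59 in controls. Here the control mean lay below both groups, and the difference was 2.71 ± 0.37 (limma adjusted p = 0.0197). Of 20 glycogen genes, a list added after values were seen, 3 were called higher (background 1.24%) and 0 lower, the other being Phka2. Limma called 0 of them without knockout replicate 3 or cold replicate 2 (8 and 9 at an unadjusted p under 0.05), 1 without control replicate 3 and 10 without knockout replicate 2. For the glycolysis and pentose phosphate list, 1 of 23 was called, Pgd, with a median of 0.29. The count was 9 and the median 0.63 without knockout replicate 2, and without knockout replicate 1 the median was 0.17. Without control replicate 2 or 3, knockout replicate 3 or any 1 cold array limma called 0, with 4 to 7 at an unadjusted p under 0.05.

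Branched-chain amino acid breakdown had 5 of 23 members called higher and 0 lower, against 1.24% and 1.15% of all genes, and a median of 0.42. The cold arrays were wholly above the knockouts for 16 members, against 12.3% of all genes. Bckdha, a subunit of the dehydrogenase that commits these amino acids to breakdown, read 13.20, 13.01 and 13.02 in the cold, 12.08, 12.14 and 12.03 in the knockouts and 11.73, 11.82 and 11.66 in controls. The knockouts were slightly above the controls and the cold arrays well above both, with a difference of 0.99 ± 0.07 (limma adjusted p = 0.00301). The others were Pcca at 0.82 ± 0.11, Mccc1 at 0.76 ± 0.15, Hibch at 0.62 ± 0.06 and Acad8 at 0.50 ± 0.06 (limma adjusted p = 0.0213, 0.0479, 0.00917 and 0.0168). The count was 11 without knockout replicate 2 and 6 and 7 without control replicates 2 and 1. It was 4 without knockout replicate 1, 2 without control replicate 3, cold replicate 1 or cold replicate 3, and 1 without knockout replicate 3 or cold replicate 2.

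Of the thermogenic genes themselves, few were called different between the routes. Among 27 measured members, 2 were called higher in the cold (7.41%, against 1.24% of all genes) and 1 lower (3.7%, against 1.15%), 8 differences were above 0 and 19 below (70.4%, against 56.5% of all genes), and the median was -0.55. The median was -0.83 without knockout replicate 1, -0.05 without knockout replicate 2, -0.26 without knockout replicate 3 and -0.29 without cold replicate 3. Relative to the control mean, the list median stood at 2.35, 2.05 and 1.71 on the cold arrays and at 1.50, 3.37 and 2.36 on the knockout arrays. Both groups were far above the controls, and the knockout arrays were spread widely around the cold ones. The median SD of the list within a group was 0.85 in the knockouts, 0.14 in the cold and 0.21 in the controls, against 0.14, 0.08 and 0.11 over all genes.

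Ucp1, the uncoupling protein, read 19.18, 19.00 and 18.86 in the cold, 18.34, 19.92 and 19.68 in the knockouts and 11.74, 13.07 and 12.42 in controls. Knockout replicate 1 was below all cold arrays and the other knockout arrays were above them. The difference was -0.30 ± 0.47 (limma adjusted p = 0.715), and it was -0.78, 0.00 and -0.11 without knockout replicates 1, 2 and 3. All 6 values were near the highest value of the table, 19.93, so a difference at this level may not show. Cidea, a lipid droplet protein of brown fat, read 16.74, 16.61 and 16.51 in the cold, 16.68, 17.92 and 17.42 in the knockouts and 13.37, 14.48 and 13.98 in controls. Its difference was -0.72 ± 0.36 (limma adjusted p = 0.246).

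Dio2, Ppargc1a, Nr4a1 and Pdk4 had their highest values in knockouts without passing the test. Dio2, the deiodinase that turns thyroxine into its active form, read 8.38, 7.89 and 7.57 in the cold, 7.65, 13.19 and 11.54 in the knockouts and 5.73, 5.95 and 6.03 in controls. Knockout replicate 1 lay within the cold range and the other knockout arrays lay at least 3 units above it, and the difference of -2.84 ± 1.24 did not pass (limma adjusted p = 0.194). Ppargc1a, the coactivator PGC-1 alpha, read 10.69, 10.45 and 10.15 in the cold, 9.77, 13.80 and 12.40 in the knockouts and 8.87, 8.69 and 8.55 in controls. Its difference was -1.56 ± 0.89 (limma adjusted p = 0.299). Without knockout replicate 1 the differences of Dio2 and Ppargc1a were -4.42 and -2.67 (limma adjusted p = 0.0271 and 0.0472), and without knockout replicate 2 they were -1.65 and -0.65 (limma adjusted p = 0.312 and 0.553). Nr4a1, an immediate early nuclear receptor, read 7.24, 7.24 and 7.06 in the cold and 8.09, 11.00 and 9.53 in the knockouts, with 7.52, 7.21 and 7.18 in controls. Its difference was -2.36 ± 0.63 (limma adjusted p = 0.0822), and limma adjusted p was 0.0366 without knockout replicate 1 and 0.0408 without knockout replicate 2. The list of 18 immediate early genes that holds it had a median of -0.15, with 1 called higher in the cold (Klf6) and 0 called lower. Its calls were 2 higher and 3 lower without knockout replicate 2, and without knockout replicate 1 they were 0 higher and 2 lower. Without control replicate 3, knockout replicate 3 or any 1 cold array limma called 0, with 3 or 4 at an unadjusted p under 0.05. Pdk4, which shuts off pyruvate oxidation, read 15.74, 15.83 and 15.96 in the cold, 17.00, 18.56 and 17.99 in the knockouts and 14.10, 15.12 and 14.64 in controls. The groups did not overlap, and the difference of -2.01 ± 0.41 just missed the threshold (limma adjusted p = 0.0539). It passed without knockout replicate 1 or 2 (limma adjusted p = 0.0365 and 0.0364).

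Other thermogenic genes were highest in the cold. Elovl3, a fatty acid elongase induced in brown fat, read 13.28, 13.14 and 13.39 in the cold, 8.67, 12.95 and 11.69 in the knockouts and 5.85, 7.30 and 6.84 in controls. The cold arrays were tight and above every knockout array, and the difference of 2.17 ± 1.00 did not pass (limma adjusted p = 0.212). Without knockout replicate 1 it was 0.95. Cox7a1, a cytochrome oxidase subunit isoform of muscle and brown fat, read 15.99, 15.73 and 15.30 in the cold and 13.55, 14.71 and 14.16 in the knockouts, with 9.38, 10.18 and 9.99 in controls. Its difference was 1.53 ± 0.34 (limma adjusted p = 0.0635).

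The called genes of this list were Acot11, Kng2 and Ntrk3. Acot11, an acyl-CoA thioesterase, read 9.77, 9.77 and 10.01 in the cold, 7.21, 8.31 and 7.74 in the knockouts and 5.92, 6.30 and 6.17 in controls. The knockouts lay between controls and cold, with a difference of 2.10 ± 0.26 (limma adjusted p = 0.0168). Kng2, a kininogen gene with a close copy in the mouse, Kng1, read 8.57, 8.31 and 8.55 in the cold and 5.28, 6.94 and 6.28 in the knockouts, with 5.31, 4.96 and 4.92 in controls. Its difference was 2.31 ± 0.38 (limma adjusted p = 0.0334). Ntrk3, the receptor of neurotrophin-3, read 9.10, 9.10 and 9.09 in the cold, 9.97, 9.90 and 9.97 in the knockouts and 8.04, 8.56 and 8.30 in controls. Both groups lay above every control array and the knockouts lay highest, with a difference of -0.85 ± 0.12 (limma adjusted p = 0.0205). Without control replicate 3, knockout replicate 3 or any 1 of the cold arrays, limma called no member of the list, 8 of the 27 having an unadjusted p under 0.05 with all arrays. It called 6 members without knockout replicate 1 and 7 without knockout replicate 2. Prdm16 and Ebf2, regulators of the beige fate, had overlapping arrays and differences of 0.17 ± 0.18 and -0.05 ± 0.16 (limma adjusted p = 0.587 and 0.867).

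**Figure D3:**
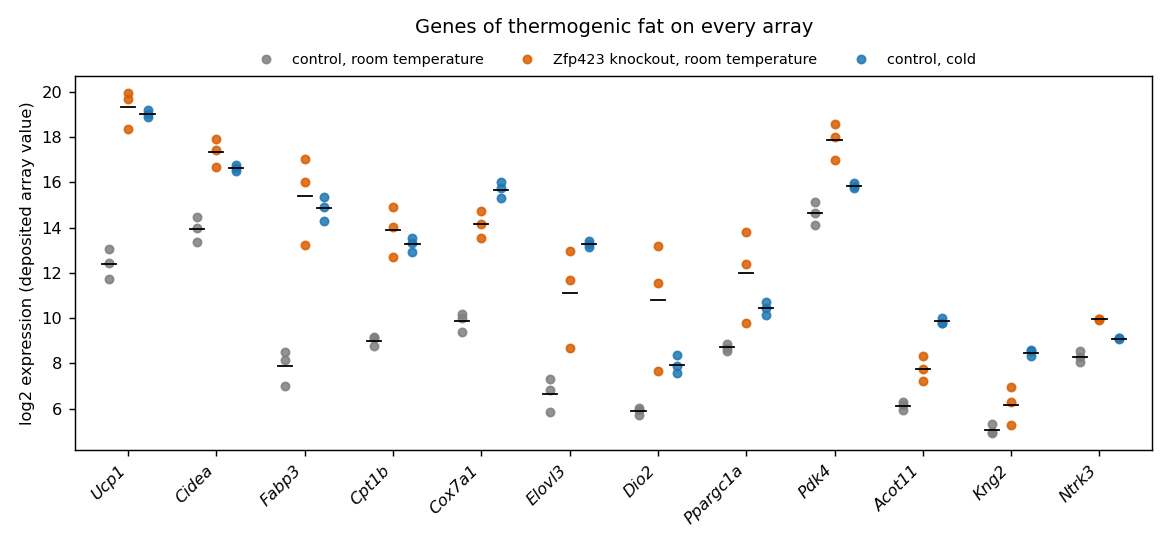
Deposited log2 value (vertical axis) on each array for 12 genes of thermogenic fat, with a bar at each group's mean. The knockout arrays (orange) span from 7.65 to 13.19 for Dio2 and from 8.67 to 12.95 for Elovl3. For both genes the cold-exposed arrays (blue) lie closer together and the room temperature controls (grey) lie lowest. For Kng2 the highest control array lies just above the lowest knockout array.

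Mitochondrial fuel oxidation stood above controls by both routes. In the citric acid cycle and pyruvate dehydrogenase list the array medians relative to controls were 1.46, 1.43 and 1.44 in the cold and 0.49, 1.58 and 1.00 in the knockouts. Of its 23 members, 2 were called higher in the cold, Idh3g at 0.34 ± 0.06 and Suclg2 at 0.36 ± 0.06 (limma adjusted p = 0.0353 and 0.0393), against 1.24% of all genes. The cold arrays were wholly above the knockouts for 12, against 12.3% of all genes. The list median was 0.40, and it was 0.24 without knockout replicate 1 and 0.65 without knockout replicate 2. Without knockout replicate 2, 13 were called, without knockout replicate 1 it was 1, and without control replicate 3, knockout replicate 3 or any 1 cold array limma called none, 12 having an unadjusted p under 0.05 with all arrays. Of 34 complex I genes and 38 genes of complexes II to V, limma called 0, with 5 and 4 at an unadjusted p under 0.05 and medians of 0.25 and 0.18. It called 11 and 10 of them without knockout replicate 2, with medians of 0.40 and 0.39, and without knockout replicate 1 the medians were -0.03 and 0.01. Of 69 mitochondrial ribosomal genes it called 0, with 6 at an unadjusted p under 0.05 and a median of -0.01, which became 0.06 after quantile normalization. Limma called 4 of the 69 without knockout replicate 2, with a median of 0.10, a smaller share than the 2700 of all 16915 genes. Without knockout replicate 1 it called 1, against 197 of all genes. The fatty acid oxidation list had 3 of 23 called higher (background 1.24%), Acsl5, Acaa2 and Acad8, and a median of 0.22 that was 0.01 without knockout replicate 1 and 0.41 without knockout replicate 2. Acsl5, which activates long-chain fatty acids, read 13.48, 13.30 and 13.42 in the cold, 11.78, 11.17 and 11.63 in the knockouts and 11.56, 11.67 and 11.62 in controls. The knockouts overlapped the controls, and the difference was 1.87 ± 0.15 (limma adjusted p = 0.00427). Acaa2, a thiolase of beta-oxidation, differed by 0.97 ± 0.16 (limma adjusted p = 0.0378). Called members of that list numbered 7 without knockout replicate 2 and 1 without control replicate 3, knockout replicate 3 or any 1 of the cold arrays.

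Clock genes differed between the routes. Of 17 measured members, 6 were called higher in the cold and 0 lower, against 1.24% and 1.15% of all genes. The median was 0.71, and 13 had cold arrays wholly above the knockouts, against 12.3% of all genes. Bhlhe40, a repressor of the clock, read 10.34, 10.90 and 11.21 in the cold, 8.88, 9.17 and 9.22 in the knockouts and 10.04, 10.35 and 10.19 in controls. The cold and control arrays overlapped and the knockouts were below both, with a difference of 1.73 ± 0.22 (limma adjusted p = 0.0173). Ciart, another repressor of the clock whose promoter above held 3 E-boxes, read 7.83, 8.19 and 8.59 in the cold, 6.75, 6.48 and 6.77 in the knockouts and 7.13, 6.83 and 7.12 in controls. Its difference was 1.54 ± 0.19 (limma adjusted p = 0.0173).

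Nr1d1, the repressor REV-ERB alpha, and the output factors Tef and Hlf differed by 0.92 ± 0.14, 0.71 ± 0.07 and 0.53 ± 0.10 (limma adjusted p = 0.0273, 0.0103 and 0.0416). Cry2 differed by 0.53 ± 0.09 (limma adjusted p = 0.0389). Arntl, the activator BMAL1, was below 0 at -0.51 ± 0.18, with non-overlapping arrays, and missed the threshold (limma adjusted p = 0.143). The time of day at which tissue was taken is not given in the labels, so it and the group cannot be told apart. Called members numbered 8, 9 and 1 without control replicates 1, 2 and 3 and 8 without knockout replicate 2. They numbered 3 without knockout replicate 1, cold replicate 1 or cold replicate 3. Without knockout replicate 3 or cold replicate 2 limma called 0, with 12 at an unadjusted p under 0.05 in each.

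Values of white adipocyte genes leaned toward the cold group, with 1 call. Of 15 measured, 13 differences were above 0, the median was 0.50, and 6 had cold arrays wholly above the knockout arrays (background 12.3%) against 0 wholly below. Lep, leptin, read 15.52, 15.30 and 14.45 in the cold, 11.24, 13.90 and 12.89 in the knockouts and 14.62, 12.84 and 13.95 in controls. Npr3, the clearance receptor of natriuretic peptides, read 15.30, 14.94 and 14.53, then 10.13, 13.78 and 12.61, then 15.87, 13.30 and 14.89 in the same order of groups. For both genes the cold arrays were above all knockout arrays and overlapped the control arrays, and the differences of 2.42 ± 0.74 and 2.75 ± 0.99 were not past the threshold (limma adjusted p = 0.103 and 0.141). Wfdc21 alone was called, at 1.19 ± 0.12 (limma adjusted p = 0.00993), and 6 of the 15 had an unadjusted p under 0.05. Without knockout replicate 3 or cold replicate 2 limma called 0 (4 and 3 at an unadjusted p under 0.05), and without control replicate 1 or knockout replicate 2 it called 2. The median was 0.30 without cold replicate 1. Pparg, the master regulator of adipocytes, differed by 0.76 ± 0.22 (limma adjusted p = 0.0985).

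Other genes with large differences in the cold direction covered detoxification, secreted proteins and a receptor. Gsta3, a glutathione transferase, read 9.68, 9.83 and 9.77 in the cold, 6.21, 7.67 and 6.78 in the knockouts and 8.08, 6.84 and 7.72 in controls. The difference was 2.87 ± 0.42 (limma adjusted p = 0.0249), and Gsta4 differed by 1.03 ± 0.09 (limma adjusted p = 0.0069). Both belong to a family with near-identical copies, so part of a signal may come from a relative. Serpina1c, of the alpha-1 antitrypsin family, likewise has near-identical copies and differed by 2.59 ± 0.50 (limma adjusted p = 0.0495). Ptger3, the EP3 receptor of prostaglandin E2, which lowers cyclic AMP, read 12.24, 12.46 and 13.02 in the cold, 9.56, 10.93 and 10.34 in the knockouts and 11.32, 11.06 and 11.22 in controls. The knockouts were below all control arrays and the cold arrays above them, with a difference of 2.30 ± 0.35 (limma adjusted p = 0.0266). Tlcd2 differed by 2.39 ± 0.38 (limma adjusted p = 0.0317).

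In the knockout direction the largest called difference was Gpx8, a peroxidase of the endoplasmic reticulum. It read 12.23, 12.57 and 13.14 in the cold, 15.16, 15.75 and 15.59 in the knockouts and 12.72, 13.39 and 13.32 in controls. The knockouts stood alone, and the cold arrays overlapped the controls. The difference was -2.86 ± 0.29, 7.24-fold higher in the knockouts (limma adjusted p = 0.00968). Impdh1, which makes the precursor of guanine nucleotides, read 7.59, 7.91 and 8.09 in the cold, 10.64, 9.42 and 10.06 in the knockouts and 7.71, 7.79 and 7.75 in controls. The pattern was the same, with a difference of -2.18 ± 0.28, 4.53-fold higher in the knockouts (limma adjusted p = 0.0184). Without knockout replicate 3 the limma adjusted p was 0.0707 for Gpx8 and 0.098 for Impdh1, and without cold replicate 2 it was 0.0617 and 0.0971. Impdh1 also missed without control replicate 3 (limma adjusted p = 0.0568) or cold replicate 1 (limma adjusted p = 0.0657).

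With all arrays, no other gene of the purine or glutathione lists was called in the same direction as Impdh1 and Gpx8. Of 18 purine genes, Impdh1 was the only one called lower in the cold (5.56%, against 1.15% of all genes). Xdh, which degrades purines, was the only one called higher (5.56%, against 1.24%), by 0.92 ± 0.16 (limma adjusted p = 0.0379). The purine list median was -0.02. Of 25 glutathione and antioxidant genes, Gpx8 was the only one called lower in the cold (4%, against 1.15%) and 3 were called higher (12%, against 1.24%). Without knockout replicate 2 the calls on that list were 7, without cold replicate 2 there was 1, and without knockout replicate 3 limma made 0, with 5 at an unadjusted p under 0.05. Of 25 ER folding genes, limma called 0, with 4 at an unadjusted p under 0.05 and a median of -0.13. Mmd2 and Xlr3b were also higher in the knockouts than in cold and control arrays. Mmd2 read 5.41, 5.51 and 5.67 in the cold, 6.92, 6.49 and 6.65 in the knockouts and 5.39, 5.37 and 5.49 in controls, a difference of -1.16 ± 0.12 (limma adjusted p = 0.0096). Xlr3b, one of several near-identical copies, differed by -1.24 ± 0.17 (limma adjusted p = 0.0197).

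T cell and NK cell genes had lower values in the cold, without passing the test. All 19 measured members had differences below 0, with a median of -1.54, and 17 had knockout arrays wholly above the cold arrays against 20.0% of all genes. Limma called 0 of them with all arrays, 16 having an unadjusted p under 0.05, and 16 without knockout replicate 2. Relative to the control mean the list stood at -0.77, -0.76 and -0.77 on the cold arrays, at 1.28, -0.14 and 0.67 on the knockout arrays and at -0.26, 0.36 and -0.03 on the control arrays. The cold arrays were below every control array, and the knockout arrays spread from within the control range to well above it. Cd3e, a T cell receptor subunit, read 9.74, 9.82 and 9.70 in the cold, 12.69, 10.61 and 11.99 in the knockouts and 10.72, 11.41 and 11.02 in controls. Its difference was -2.01 ± 0.48 (limma adjusted p = 0.0696).

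Genes of lymphocytes outside the list were among those called. Il7r, the interleukin-7 receptor, read 9.70, 10.00 and 10.45 in the cold, 12.37, 11.38 and 12.09 in the knockouts and 11.07 on each control array. Its difference was -1.89 ± 0.27 (limma adjusted p = 0.0237), and it missed the threshold without control replicate 3, knockout replicate 1 or 3, or cold replicate 1 or 2 (limma adjusted p between 0.051 and 0.126). Trat1, an adaptor of the T cell receptor, and Cd96, a lymphocyte surface receptor, differed by -1.10 ± 0.14 and -1.20 ± 0.23 (limma adjusted p = 0.0167 and 0.0479). The share of this difference that came from the number of T cells in each pad was not tested.

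Other immune lists also had medians below 0, but their array medians overlapped between cold and knockout. The macrophage list of 21 genes had a median of -0.73, with array medians of -1.02, -1.01 and -0.74 in the cold and 0.81, -0.93 and 0.06 in the knockouts, relative to controls at -0.50, 0.66 and -0.02. Limma called 0 of its members, with 8 at an unadjusted p under 0.05. It called 9 lower and 1 higher without knockout replicate 2, without control replicate 1 it called 1 higher, and without knockout replicate 1 the median was -0.42. The knockout arrays lay wholly above the cold arrays for 8 members, against 20.0% of all genes, and wholly below them for 1, against 12.3%. Cd68, a macrophage marker, read 8.86, 9.22 and 9.17 in the cold and 12.22, 8.97 and 11.07 in the knockouts, so for this gene the groups overlapped. For 16 B cell genes and 8 MHC class II genes limma called 0, with 3 and 4 at an unadjusted p under 0.05 and medians of -0.94 and -1.05. The knockout arrays lay wholly above the cold arrays for 2 and 4 of them, against 20.0% of all genes. Relative to controls, the B cell list stood at -1.35, -0.89 and -0.52 on the cold arrays and at 0.52, -0.68 and -0.09 on the knockout arrays. The interferon list of 21 genes had 0 called, 4 at an unadjusted p under 0.05 and a median of -0.46, and 20 cell cycle genes had 0 called, 8 at an unadjusted p under 0.05 and a median of -0.30. Knockout arrays lay wholly above the cold arrays for 3 interferon and 5 cell cycle genes. Over all 16915 genes, 4525 had an unadjusted p under 0.05. With knockout replicate 2 left out, limma called 1 B cell gene, 3 interferon genes and 7 cell cycle genes, all lower in the cold. The same fit called 1833 of all 16915 genes lower. Without knockout replicate 1 the interferon median was -0.07 and the cell cycle median -0.17.

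Some ribosomal protein genes were lower in the cold, with small differences. Of 43 measured, 7 were called lower (16.3%, against 1.15% of all genes) and 0 higher, 40 differences were below 0, against 56.5% of all genes, and the median was -0.72. This list and that of ribosomal pseudogenes were added after values were seen. Rpl35 read 14.57, 14.54 and 14.60 in the cold, 15.92, 15.45 and 15.64 in the knockouts and 15.06, 15.73 and 15.28 in controls. The cold arrays were below every control and knockout array, and knockouts and controls overlapped. Its difference was -1.10 ± 0.18 (limma adjusted p = 0.0353). Rpl8, Fau and Rps28 differed by -0.98 ± 0.18, -0.93 ± 0.17 and -0.88 ± 0.12 (limma adjusted p = 0.0428, 0.0425 and 0.0205). Relative to the controls the list stood at -0.50, -0.50 and -0.49 on the cold arrays and at 0.44, -0.06 and 0.21 on the knockout arrays, which were ordered as in the T cell list.

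Of 179 ribosomal pseudogenes, 29 were called lower (16.2%, against 1.15% of all genes), all 179 differences were below 0 and the median was -0.77. They carry sequences almost the same as the genes, so the probes of gene and pseudogene cannot be told apart. Pseudogenes of any kind made up 2554 of the 16915 tested genes (15.1%), 91 of the 195 called higher in the knockouts (46.7%) and 19 of the 210 called higher in the cold (9.05%). Called ribosomal genes numbered 13 and 14 without control replicates 1 and 2 and 33 lower without knockout replicate 2. They numbered 1 without knockout replicate 1 or cold replicate 3. Without control replicate 3, knockout replicate 3, cold replicate 1 or cold replicate 2 limma called 0, with 36 to 38 at an unadjusted p under 0.05. Called pseudogenes numbered 51 and 69 without control replicates 1 and 2 and 137 without knockout replicate 2. They numbered 7 without control replicate 3, knockout replicate 1 or cold replicate 3, 5 without cold replicate 1, 1 without cold replicate 2 and 0 without knockout replicate 3, where 145 had an unadjusted p under 0.05. The part of lymphocytes in the ribosomal difference was not tested.

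**Figure D4:**
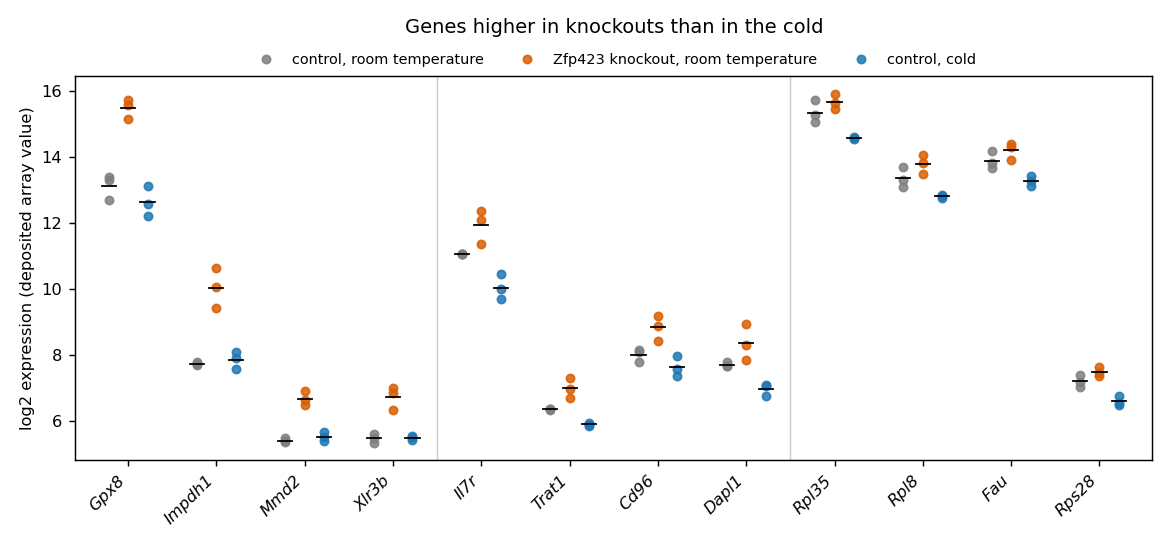
Deposited log2 value (vertical axis) on each array for 12 genes called higher in knockouts than in the cold, in 3 blocks of 4 divided by grey lines, with a bar at each group's mean. For Gpx8 and Impdh1 the cold-exposed arrays (blue) lie with the room temperature controls (grey), while for Il7r and Rpl35 the control means lie between cold and knockout (orange).

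The remaining lists of non-adipocyte cells showed few calls. Of 15 endothelial genes limma called 0, with 5 at an unadjusted p under 0.05 and a median of 0.52. It called 5 without knockout replicate 2, and without knockout replicate 1 the median was 0.16. Of 37 matrix genes 1 was called, Thbs1, thrombospondin 1, at -0.45 ± 0.08 (limma adjusted p = 0.0379), where both groups were below the controls. Without knockout replicate 2 the calls were 2 higher and 2 lower, against 867 and 1833 of all 16915 genes. Without cold replicate 3 there was 1 higher. Without control replicate 3, any other knockout array or either other cold array limma called 0, with 5 or 6 at an unadjusted p under 0.05. The lists of 13 progenitor and 12 mural genes had 0 called, with 6 and 2 at an unadjusted p under 0.05 and medians of 0.07 and 0.02. Without knockout replicate 2 they had 4 and 1 called, against 2700 of all 16915 genes, and without control replicate 1 or 2 the mural list had 1 called. Skeletal muscle genes varied between arrays of one group: their median relative to controls was 0.32, -0.72 and -3.97 on the cold arrays and -1.59, 0.39 and -0.31 on the knockout arrays. Limma called 0 of the 20, with 1 at an unadjusted p under 0.05, and the list median of -0.90 became 0.26 without cold replicate 3. Cold replicate 3 also carries a label that differs slightly from those of the other arrays, whose meaning the labels do not give.

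**Figure D5:**
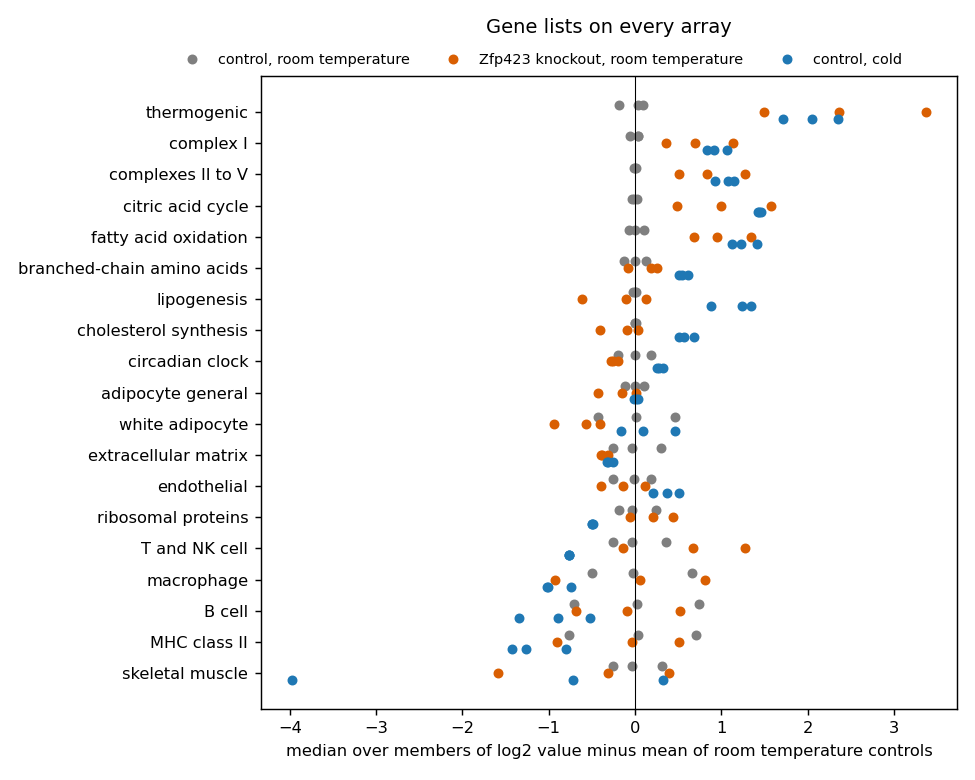
Median over the measured members of 19 gene lists (rows) of the log2 value on each array minus the mean of the room temperature controls (horizontal axis), with 1 point per array. Cold-exposed arrays (blue) lie right of the knockout arrays (orange) for lipogenesis and cholesterol synthesis and left of them for T and NK cell genes, while for the thermogenic list both groups lie between 1.50 and 3.37.

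The called genes differed in where the room temperature controls lay. Of the 210 genes higher in the cold, the control mean lay between the groups for 152 (72.4%), below both for 44 and above both for 14. It was nearer the knockout mean for 140 and nearer the cold mean for 70. The control arrays did not overlap the cold arrays for 160 of them and did not overlap the knockout arrays for 128. Of the 195 genes higher in the knockouts, the control mean lay between for 184 (94.4%), below both for 10 and above both for 1. For these 195 it was nearer the knockout mean for 120 and nearer the cold mean for 75. Control arrays did not overlap the cold arrays for 157 of the 195 and did not overlap the knockout arrays for 107. The group means of these comparisons share arrays with the main one, so they add no independent evidence. Called genes were picked for a gap between cold and knockout, which by itself favours a control mean between them. The same counts were not made over all tested genes, so these shares have no background. Against controls, 255 genes (1.51%) were called in the cold, 223 higher (1.32%) and 32 lower (0.189%), and 62 (0.367%) in the knockouts, 38 higher (0.225%) and 24 lower (0.142%).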

How the data were processed

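Total RNA of inguinal white fat was hybridised to Affymetrix mouse transcriptome arrays (MTA 1.0). The log2 values are those the authors deposited, made with Affymetrix Expression Console per the submitters' processing notes (its version, genome build, summarisation method and any batch correction: not given in the sources used here). Of 65770 transcript cluster rows, the platform annotation named 1 gene for 31216, several for 1534 and none for 33020. Symbols of 827 rows were updated through Entrez identifiers. Rows with a mean over 9 arrays of at least 5.31, the table median, were kept, and each gene's brightest row was used. limma 3.58.1 in R 4.3.3 (lmFit and eBayes, 3 group means, 9 arrays, two-sided) was used with Benjamini-Hochberg adjustment over 16915 genes. On simulated data with independent noise for each gene and array, 12 of 173 calls fell on unchanged genes. The simulation had no in-between arrays or identical values, so it cannot show how these affect the calls. Genes just inside the threshold were Gramd1b, Lrrc27 and Flvcr1 (limma adjusted p = 0.0497, 0.0498 and 0.05), and just outside Enpp5, Pik3r1 and Rpl27 (limma adjusted p = 0.0501, 0.0503 and 0.0505). Genes were eligible for naming if given with the comparison, central to beige fat, or leading a gene list. So were the 15 largest called and 8 largest non-overlapping differences in each direction. Others are said to be chosen after their values were seen, or describe a list. Not every eligible gene is described. Among those left out, Ccl8, Ctss, Marco, Cd8b1, Ifi213 and Ptk2b were lower in the cold under every alternative fit. Of these only Ptk2b passed the threshold with all arrays. Members and lists were chosen with earlier results of these data known. The lists on the nerve, lipolysis, glucocorticoid, futile cycle, blood and sex-linked genes gave no called gene with all arrays (3, 2, 6, 2, 0 and 0 at an unadjusted p under 0.05 by limma).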

Additional observations from a re-analysis of the deposited data

How the results depend on the processing

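The count of 405 called genes was 222 with no filter on low rows, 709 with the filter at the 75th percentile of row means and 9975 with array weights, where the weights did not converge. It ranged from 14 to 2700 when each array was left out in turn, and was 0 (987 at an unadjusted p under 0.05 by limma) without the 3 in-between arrays. With the replicate number as a block it was 36. The numbers do not pair the arrays: deviations from the group means of knockout and cold arrays of the same number correlated at -0.24, 0.02 and 0.08 across genes, and not every array correlated best with its own number. For room temperature controls and knockouts, same-numbered arrays correlated at -0.46, -0.46 and 0.02. Control replicate 1 with knockout replicate 2, and control replicate 2 with knockout replicate 1, correlated at 0.45 and 0.47. The source of this shared spread was not tested. Repeated quantile normalization, centring, trend, robust variance, the 6 arrays alone and the mean of all rows gave between 353 and 520. No named gene that passed changed sign under any alternative. Values near the table's highest value, 19.93, may understate differences.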

Other observations

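Genes outside the lists, chosen after their values were seen, gave further differences in the cold direction. Rbp4, the retinol carrier that fat secretes, read 12.79, 13.08 and 13.42 in the cold, 10.61, 11.47 and 10.86 in the knockouts and 13.22, 12.36 and 12.70 in room temperature controls, with a difference of 2.11 ± 0.30 (limma adjusted p = 0.0231). The cold arrays overlapped the controls, and the knockouts were below both. Chst1, a sulfotransferase of glycans, and Steap4, a metalloreductase, were also lowest in the knockouts. Chst1 differed by 2.19 ± 0.28 (limma adjusted p = 0.0179) and Steap4 by 1.27 ± 0.21 (limma adjusted p = 0.0347), and the control means were above both groups.

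Tfrc, the transferrin receptor that brings iron into cells, read 11.38, 10.88 and 10.25 in the cold, 9.19, 9.45 and 9.41 in the knockouts and 8.13, 8.69 and 8.44 in controls. The groups did not overlap, and its difference was 1.49 ± 0.28 (limma adjusted p = 0.0449). Nampt, the rate-limiting enzyme of NAD salvage, had a smaller difference in the same order, 0.55 ± 0.08 (limma adjusted p = 0.0213), with 12.88 on each knockout array. The growth factor genes Vegfd and Fgf2 differed by 1.02 ± 0.11 and 1.05 ± 0.16 (limma adjusted p = 0.0106 and 0.0266). Fabp5, a fatty acid binding protein, differed by 1.45 ± 0.20 (limma adjusted p = 0.0197), with 8.91 on each control array between the groups.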
